A study of Homo sapiens with 2 samples.

Results

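The 8 genes described here form the core of the oxygen-sensing machinery and were followed through sections of tumors grown from human breast cancer cells: the hypoxia-inducible factor subunits HIF1A, EPAS1 and ARNT, the prolyl hydroxylases EGLN1, EGLN2 and EGLN3, the asparaginyl hydroxylase HIF1AN and the ubiquitin ligase subunit VHL. They were taken by symbol from the 36601 features of the deposited tables, and all 8 of 8 had UMIs in both tumors. The sections came from Tumor-897 and Tumor-899, untreated replicates of 1 group grown from MDA-MB-231, an established triple-negative breast cancer line, and harvested at day 18 after implantation. Per the labels these are hypoxia fate-mapping tumors. Such a system leaves a lasting fluorescent mark in cells that met low oxygen, and images of that fluorescence were not used here. Fresh-frozen sections of 10 µm were read on the Visium array, which counts captured transcripts as unique molecular identifiers (UMIs) in a lattice of spots that can each hold several cells. Genes were counted against human annotation, so host reads aligning to a human gene cannot be told apart from the line's own, and the labels do not describe the host.

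In cells with enough oxygen, the EGLN enzymes hydroxylate the alpha subunits HIF1A and EPAS1, VHL then binds the hydroxylated subunit and a ubiquitin ligase marks it for degradation, while HIF1AN blocks its contact with coactivators. When oxygen is short, the alpha subunits accumulate as proteins, pair with ARNT and switch on genes that carry hypoxia response elements, EGLN3 and EGLN1 among the known targets. That control acts mainly on protein stability, whereas the UMIs here report RNA only.

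RefSeq promoter sequences (GRCh38.p14, 250 bases before to 50 after the annotated start) matched 7 of the 8 members. Those of EGLN3, EGLN1, EGLN2 and HIF1A, members whose RNA ran in opposite directions along the hypoxia score, are printed here 5′ to 3′ on the gene's strand, with any hypoxia response element core (ACGTG or GCGTG, searched on both strands) in capitals. The EGLN3 window lies on the minus strand at chr14:33951025-33951324, EGLN1 on the minus strand at chr1:231422238-231422537, EGLN2 on the plus strand at chr19:40798941-40799240 and HIF1A on the plus strand at chr14:61695263-61695562.
EGLN3: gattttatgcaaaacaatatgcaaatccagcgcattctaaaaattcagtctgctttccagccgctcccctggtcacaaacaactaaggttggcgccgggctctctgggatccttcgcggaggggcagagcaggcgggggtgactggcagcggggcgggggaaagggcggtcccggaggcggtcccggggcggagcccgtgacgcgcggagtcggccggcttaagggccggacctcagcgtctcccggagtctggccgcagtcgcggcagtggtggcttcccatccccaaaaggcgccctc
EGLN1: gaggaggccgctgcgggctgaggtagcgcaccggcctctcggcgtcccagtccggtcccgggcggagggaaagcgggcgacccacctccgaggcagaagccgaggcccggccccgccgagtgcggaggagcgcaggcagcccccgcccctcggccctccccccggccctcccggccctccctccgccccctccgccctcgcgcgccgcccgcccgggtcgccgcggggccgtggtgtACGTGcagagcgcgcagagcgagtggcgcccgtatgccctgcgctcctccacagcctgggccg
EGLN2: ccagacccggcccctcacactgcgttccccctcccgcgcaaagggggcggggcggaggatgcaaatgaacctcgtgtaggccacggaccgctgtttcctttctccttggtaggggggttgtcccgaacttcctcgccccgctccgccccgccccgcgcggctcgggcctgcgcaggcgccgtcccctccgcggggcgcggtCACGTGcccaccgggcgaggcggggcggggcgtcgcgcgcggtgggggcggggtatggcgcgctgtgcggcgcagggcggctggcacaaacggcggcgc
HIF1A: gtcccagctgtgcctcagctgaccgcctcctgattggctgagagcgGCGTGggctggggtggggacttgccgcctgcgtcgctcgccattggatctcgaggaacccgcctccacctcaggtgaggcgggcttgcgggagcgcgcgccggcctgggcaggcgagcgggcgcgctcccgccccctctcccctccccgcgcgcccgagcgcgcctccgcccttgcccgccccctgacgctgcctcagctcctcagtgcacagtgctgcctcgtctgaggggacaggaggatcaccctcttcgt
Neither core was found in the EGLN3 window. EGLN1 held 1 ACGTG, HIF1A held 1 GCGTG, and EGLN2 held 2 matches that overlap in the palindrome CACGTG, 1 on each strand. Of 35116 promoters of this length 48.4% held at least 1 core, ACGTG in 21.4% and GCGTG in 36.5%. EGLN2 and HIF1A each had a second window in the table, with no core. A match is a description of these letters, not of binding.

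Tumor-897 had 2536 spots and 58661164 UMIs, and Tumor-899 had 2841 spots and 39735490 UMIs after spots under 500 UMIs were left out. Median UMIs per spot were 23574 and 15895. Low-UMI areas, set by Otsu's threshold on smoothed UMIs, covered 22.4% of spots in Tumor-897 and 30.2% in Tumor-899, with medians of 4820 and 1470 UMIs inside them. Markers of the line were abundant (VIM at 5640 and 5550 CPM, meaning UMIs of a gene per 1000000 UMIs). Of genes expected to be low in it, ESR1, PGR and CDH1 stayed at or under 0.126 CPM in both. ERBB2 (26.2 and 25.3 CPM) and EPCAM (19.7 and 17.8 CPM) did not stay that low. Of 12 listed endothelial markers, CDH5, EMCN and CLDN5 were at or under 0.226 CPM. ESAM had 88.2 and 93.6 CPM, ROBO4 27.4 and 29.8 CPM and EGFL7 26.7 and 28.7 CPM, with the others in between. Nothing in the labels says that the tumors came from separate hosts or cultures, so p-values speak for these 2 sections only. They rest mainly on a spread shared between genes, since each fit has 1 residual degree of freedom.

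Over whole sections, EGLN3 and VHL had more CPM in Tumor-897 and the other 6 members had more in Tumor-899. HIF1A had 152 CPM in Tumor-897 and 164 CPM in Tumor-899, and at least 1 UMI in 83.0% and 68.8% of spots. EPAS1, the alpha subunit known from endothelium and from clear cell renal cancer, had 25.6 and 29.5 CPM. ARNT, the shared partner of both alpha subunits, had 13.6 and 15.6 CPM. Among the hydroxylases, EGLN1 had 70.2 and 73.1 CPM, EGLN2 had 39.9 and 43.4 CPM, and HIF1AN had 38.9 and 43.7 CPM. EGLN3 had 27.9 CPM in Tumor-897 and 19.3 CPM in Tumor-899. VHL had 8.64 and 6.67 CPM, and a UMI in 16.5% and 8.59% of spots. These levels are per UMI and not per transcript length, and no order between genes is drawn from them. RNA from more cells and more RNA per cell cannot be told apart in a spot. In GRCh38.p14, EPAS1 lies at chr2:46297407-46386697, ARNT at chr1:150809713-150876599, HIF1AN at chr10:100535943-100559998, VHL at chr3:10141778-10153667, EGLN1 at chr1:231363756-231422287 and EGLN3 at chr14:33924227-33951074, all annotated as protein-coding. EGLN1 shares 6088 bases with another RefSeq gene, LOC107985360.

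The main comparison asked how the members' share of UMIs differed between spots at the top and bottom of a hypoxia gene score. Each spot was scored by the mean of 27 known hypoxia genes, none of them a member, over the spot and its adjacent spots, and the top quartile (high-score spots) was set against the bottom quartile (low-score spots) of each tumor. Counts were summed per zone and tumor and tested with edgeR's quasi-likelihood test with tumor as a block. EGLN3, EGLN1 and EPAS1 were higher in high-score spots and HIF1A and EGLN2 were lower. Of 8 members 5 passed an adjusted p of 0.05, against 15.6% of the 14110 genes tested (8.82% higher and 6.75% lower).

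EGLN3, the hydroxylase known as a strong hypoxia target, showed the widest separation. It had 67.9 CPM (95% Poisson interval 63.5 to 72.6) in high-score spots and 6.69 CPM (5.57 to 7.98) in low-score spots of Tumor-897. In Tumor-899 it had 43.3 CPM (39.6 to 47.3) in high-score spots and 4.22 CPM (2.78 to 6.14) in low-score spots. High-score spots lay far above low-score spots in both tumors. The fitted log2 fold change was 3.47 ± 0.12 (SE), an 11.1-fold difference with an edgeR adjusted p of 3.61e-09, and ranked EGLN3 at 3 among 14110 genes ordered by fold change. The log2 difference was 3.44 in Tumor-897 and 3.41 in Tumor-899. Intervals throughout cover counting error only.

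EGLN1, the main hydroxylase that sets HIF1A stability in most cells with oxygen, had 83.1 CPM in high-score spots and 59.0 CPM in low-score spots of Tumor-897, and 83.7 CPM against 63.5 CPM in Tumor-899. The intervals did not overlap in either tumor, and the log2 fold change was 0.57 ± 0.08 (edgeR adjusted p = 0.00073). EGLN2, a hydroxylase that hypoxia is not known to induce, moved the other way. It had 31.7 CPM in high-score spots and 49.8 CPM in low-score spots of Tumor-897, and 32.9 CPM against 52.2 CPM in Tumor-899. Its log2 fold change was -0.54 ± 0.09 (edgeR adjusted p = 0.00228), a call that was lost with DESeq2 (-0.55, adjusted p = 0.093) and in spots thinned to 1500 UMIs (-0.36, adjusted p = 0.48). Thus the 3 prolyl hydroxylases differed in direction and in size, with log2 values of 3.44 and 3.41 for EGLN3, 0.62 and 0.51 for EGLN1 and -0.52 and -0.55 for EGLN2 in the tumors, although the differences between the 3 genes were not tested. The locus of EGLN2 (chr19:40799191-40808434) lies within the annotated read-through gene RAB4B-EGLN2, a symbol that is not among the counted features. How reads of such a read-through transcript were counted is not given.

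HIF1A RNA was lower where the hypoxia score was high. It had 117 CPM (111 to 123) in high-score spots and 181 CPM (175 to 187) in low-score spots of Tumor-897. In Tumor-899 the values were 130 CPM (123 to 137) in high-score spots and 203 CPM (192 to 214) in low-score spots. The log2 fold change was -0.52 ± 0.08 (edgeR adjusted p = 0.000818), with -0.50 and -0.53 in the tumors. EPAS1 had 28.5 CPM in high-score spots and 21.7 CPM in low-score spots of Tumor-897, and 32.7 CPM against 27.5 CPM in Tumor-899. High-score spots were higher within each tumor, with intervals that overlapped in Tumor-899, and its log2 fold change was 0.45 ± 0.11 (edgeR adjusted p = 0.0162). Endothelial markers, listed because EPAS1 is abundant in that cell type, summed to 160 CPM in high-score spots and 163 CPM in low-score spots of Tumor-897, and to 165 CPM against 171 CPM in Tumor-899. ESAM alone had 88.2 and 93.6 CPM over the whole sections, while EMCN had no UMI in any of the 4 zones and CLDN5 had none in 3. EPAS1 lost its call with DESeq2 (log2 0.44, adjusted p = 0.402), with library size as the only scaling (0.33, adjusted p = 0.056), without the tumor block (0.45, adjusted p = 0.0675) and in spots thinned to 1500 UMIs (0.06, adjusted p = 0.959).

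ARNT, HIF1AN and VHL did not pass the threshold. ARNT had a log2 fold change of 0.31 ± 0.15 (edgeR adjusted p = 0.191), with 0.52 in Tumor-897 and 0.05 in Tumor-899. In Tumor-899 its unscaled CPM was 16.8 in high-score spots and 17.5 in low-score spots. HIF1AN had -0.17 ± 0.09 (adjusted p = 0.241) and VHL had 0.27 ± 0.18 (adjusted p = 0.353). ARNT passed in 6 of 16 other settings, among them the score made from UMIs summed over adjacent spots (0.53, adjusted p = 0.00157), so its side of the threshold depends on how the spots were chosen. HIF1AN passed with library size alone (-0.29, adjusted p = 0.0486). Of 200 genes changed in simulated counts of these zones, 54% of those with a log2 change of 0.5 and 98% of those with 1 were recovered. The simulated spread was set and not estimated from these data, and the changed genes were not chosen at the depth of these members. VHL had 44 UMIs in low-score spots of Tumor-899. So differences could be missed, and the recovery for ARNT or VHL is not known.

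**Figure D1:**
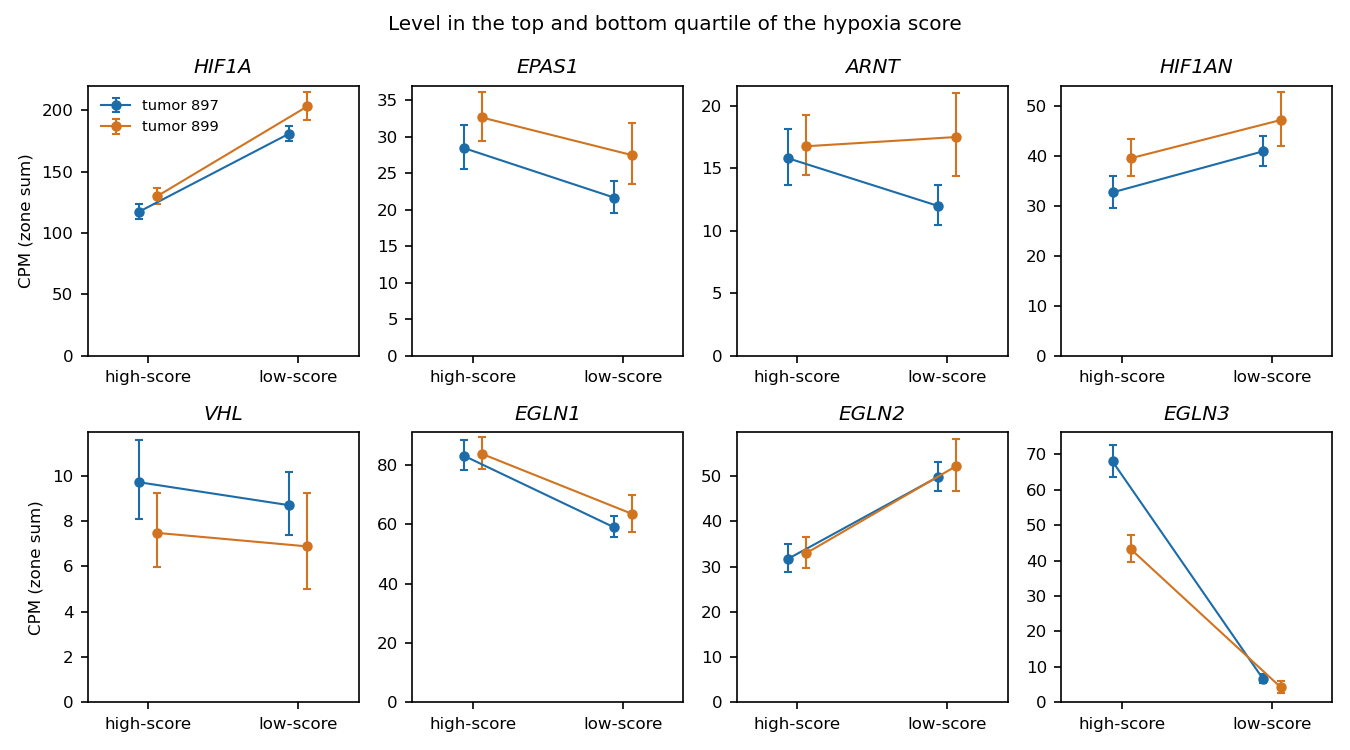
CPM of the 8 members in the high-score and low-score quartile of each tumor, with 95% Poisson intervals as bars; lines join the zones of 1 tumor. EGLN3 lies at 67.9 and 43.3 CPM in the high-score spots and at 6.69 and 4.22 CPM in the low-score spots, while HIF1A and EGLN2 lie lower in the high-score spots.

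Low-score spots of Tumor-899 were shallow and held muscle markers. Low-UMI area made up 11% of high-score spots and 51.9% of low-score spots there (20.7% and 9.46% in Tumor-897), and median UMIs per spot were 17228 and 2817. Skeletal muscle markers summed to 24.6 CPM in high-score spots and 758 CPM in low-score spots of Tumor-899, and fibroblast and pericyte markers to 805 and 1837 CPM. With the low-UMI area left out and spots matched on UMIs, the log2 fold changes were 3.75 for EGLN3, -0.58 for HIF1A, 0.58 for EGLN1, -0.56 for EGLN2, 0.53 for EPAS1 and 0.49 for ARNT, all called. With the 10% of spots richest in other cell markers left out they were 3.70, -0.54, 0.58, -0.54, 0.54 and 0.37 in the same order, again all called. Scaling mattered for the balance of calls: 56.6% of called genes were higher in high-score spots with TMM scaling and 25.6% with library size alone, which put the median log2 fold change of all genes at -0.115, against 0.00448 with TMM. No member changed sign between these scalings in this comparison.

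Across 10 equal bins of the score, from low to high, EGLN3 climbed at every step in Tumor-897, with 4.16, 7.003, 14.9, 16.2, 20.5, 24.9, 27.9, 45.3, 60.5 and 85.9 CPM. In Tumor-899 it stayed between 3.28 and 6.61 CPM in the lowest 5 bins and reached 10.3, 17.1, 20.8, 32.6 and 69.3 CPM in the highest 5. HIF1A ran from 187 to 104 CPM in Tumor-897 and from 212 to 105 CPM in Tumor-899, so the lowest values of both tumors lay in the highest bin. EGLN2 ran from 50.6 to 31.0 CPM and from 56.1 to 29.9 CPM. EGLN1 ran from 51.6 to 89.5 CPM in Tumor-897 and from 69.4 to 85.1 CPM in Tumor-899, where its lowest bin was the second, at 58.8 CPM. The lowest score bin of Tumor-899 was shallow, with a median of 1153 UMIs per spot against 11098 in the second, and held 10 UMIs of EGLN3. At such depth a low score need not mean the least hypoxia gene RNA. VHL and ARNT showed no steady course, with intervals of neighbouring bins overlapping throughout.

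**Figure D2:**
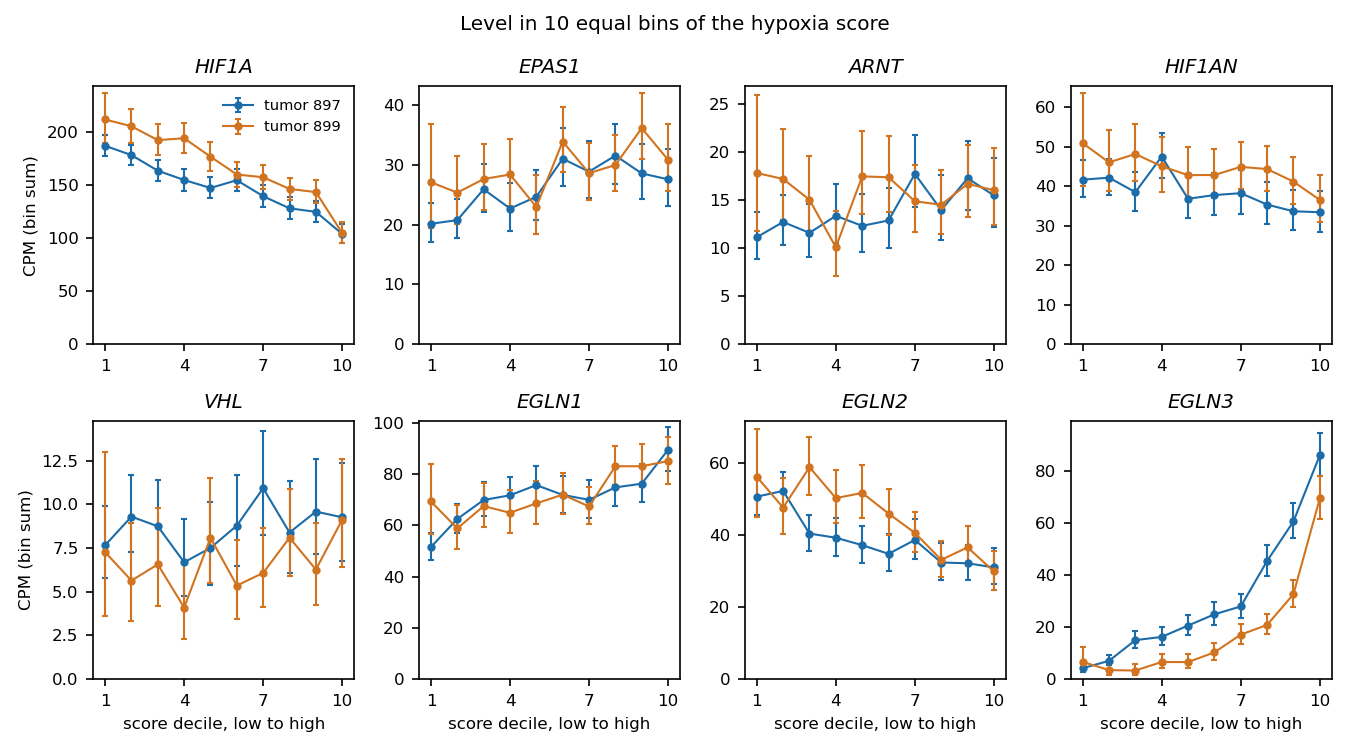
CPM of each member in 10 equal bins of the hypoxia score, from low to high, with 95% Poisson intervals, for Tumor-897 and Tumor-899. EGLN3 reaches 85.9 and 69.3 CPM in the highest bin, and HIF1A has 104 and 105 CPM there.

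Detection was also compared at 1 depth, as shares with no test. When every spot was thinned to 5000 UMIs, EGLN3 was found in 27.1% of high-score and 2.57% of low-score spots of Tumor-897, and in 20.2% and 1.48% in Tumor-899. Before thinning the shares were 63.7% and 15.8% in Tumor-897 and 45.7% and 3.8% in Tumor-899. HIF1A was found in 40.8% of high-score and 60.6% of low-score spots of Tumor-897 after thinning, and in 47.1% and 59.8% in Tumor-899. Thinning left out 43 high-score and 50 low-score spots in Tumor-897, and 82 and 373 in Tumor-899. EGLN1 was found in 35.9% and 24.0% of these spots in Tumor-897 and in 34.0% and 24.6% in Tumor-899, and EGLN2 in 13.2% and 21.4%, and in 14.1% and 26.0%. For all 4 genes the shares in high-score and low-score spots lay in the direction of the fits. In the fit on spots thinned to 1500 UMIs, EGLN3 and HIF1A were called, whereas EGLN1 (log2 0.49, edgeR adjusted p = 0.135), EGLN2 and EPAS1 were not.

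In the maps, EGLN3 formed patches along the bands of high score. Inside the central area of few UMIs in Tumor-899, EGLN3, HIF1A and EGLN2 were all uneven. The low-UMI quartile of Tumor-899 held 50 UMIs of EGLN3 in 711 spots, with a median of 1318 UMIs per spot. Each mapped spot is pooled with its adjacent spots, so 1 UMI there colours several spots, and patches cannot be told from speckle. Over patches of neighbouring spots the correlation with the score was 0.763 in Tumor-897 and 0.514 in Tumor-899 for EGLN3, -0.463 and -0.595 for HIF1A, and -0.492 and 0.153 for EGLN2, which followed log10 UMIs in Tumor-899 (0.686). Moran's I, the likeness of a spot to its adjacent spots on log2 values, was 0.193 and 0.137 for HIF1A, 0.150 and 0.1 for EGLN3, and 0.0545 and 0.138 for EGLN2 in Tumor-897 and Tumor-899. ARNT had 0.00884 and 0.00815, under the median of all genes ranked (0.0263 and 0.0492). HIF1A ranked at 200 of 10958 genes in Tumor-897 and at 1152 of 9943 in Tumor-899. After thinning to 1500 UMIs the values were 0.0319 and 0.0126 for HIF1A and -0.00149 and 0.0622 for EGLN3, so the size of Moran's I here moves with depth.

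**Figure D3:**
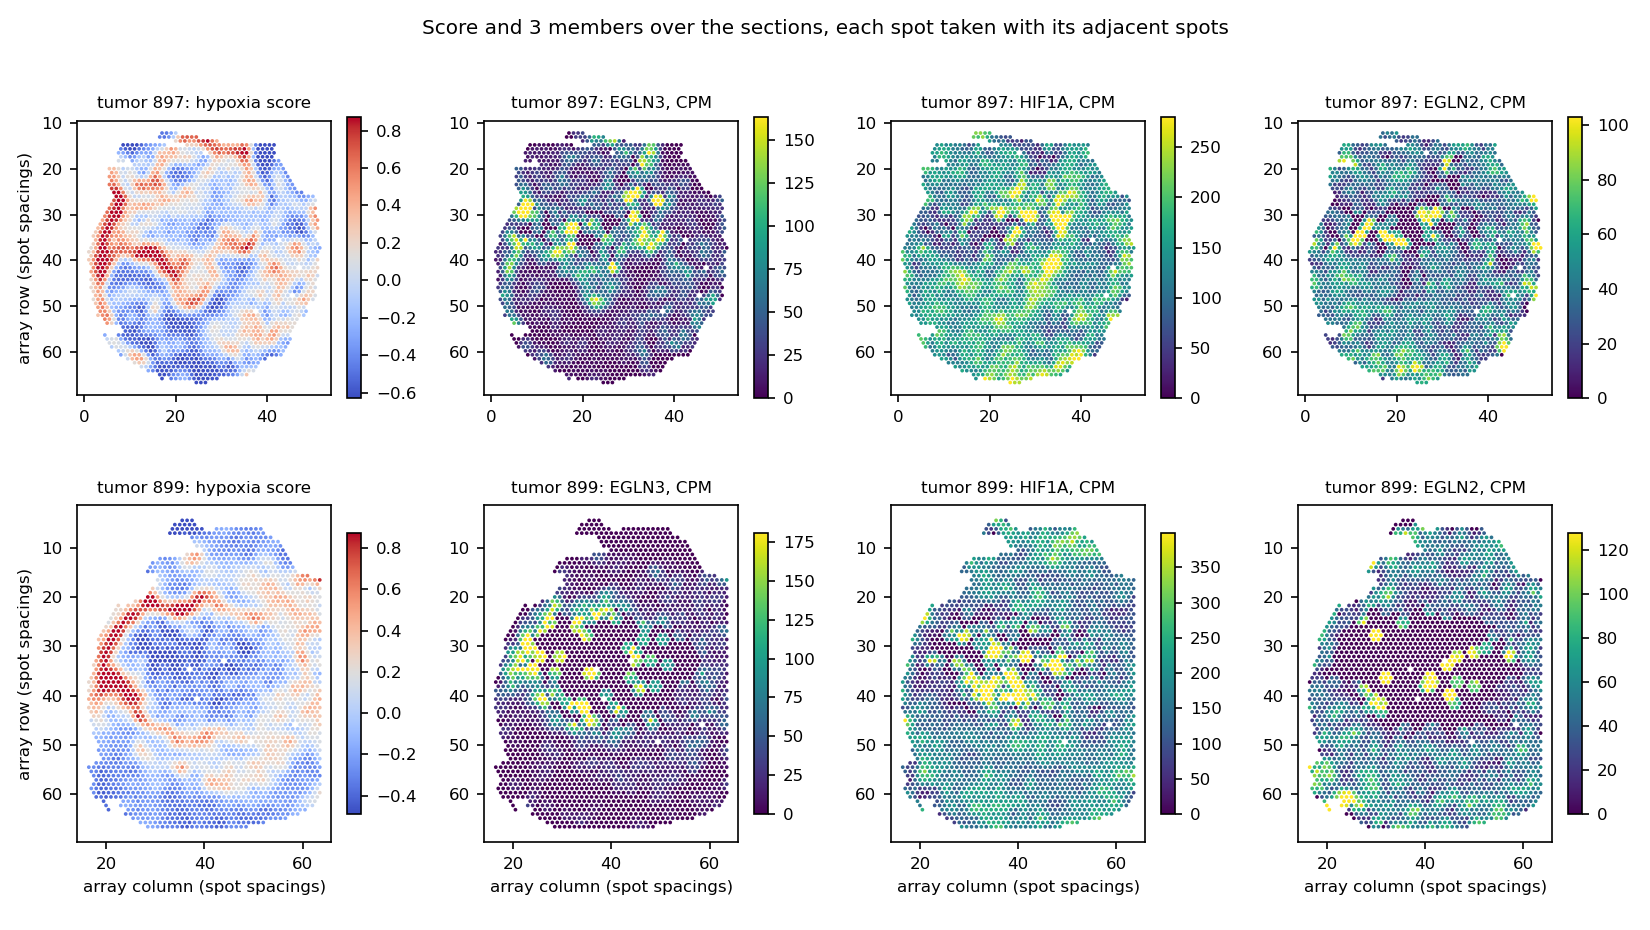
Hypoxia score (mean z-score) and CPM of EGLN3, HIF1A and EGLN2 over the spots of Tumor-897 (top) and Tumor-899 (bottom), each spot pooled with its adjacent spots; axes are in spot spacings and colours stop at the 98th percentile. EGLN3 is patchy and near 0 over most of Tumor-899 outside the bands of high score and the central area of few UMIs, whereas HIF1A is found across both sections.

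Depth in the tissue was compared without using any expression value, by setting the inner tertile of spots, counted in steps from the tissue border, against the outer tertile. EGLN3 was higher and EGLN2 lower in the inner tertile, and the other 6 members did not pass the threshold. EGLN3 had 34.5 CPM in the inner and 27.2 CPM in the outer tertile of Tumor-897, and 26.0 CPM against 14.5 CPM in Tumor-899. Its log2 fold change was 0.55 ± 0.12 (edgeR adjusted p = 0.00571), with 0.34 in Tumor-897 and 0.86 in Tumor-899. EGLN2 had 35.4 CPM in the inner and 44.1 CPM in the outer tertile of Tumor-897, and 35.6 CPM against 49.8 CPM in Tumor-899, a log2 fold change of -0.39 ± 0.09 (edgeR adjusted p = 0.00749). Of 8 members 2 were called, against 5.91% of 14731 genes (2.44% higher and 3.48% lower). Neither EGLN3 nor EGLN2 was called with DESeq2 (adjusted p = 0.317 and 0.579) or without the tumor block (0.508 and 0.164). EPAS1 had 28.4 CPM against 24.3 CPM in Tumor-897 and 35.0 CPM against 26.2 CPM in Tumor-899, inner tertile first in each, with a log2 fold change of 0.33 ± 0.10 just outside the threshold (edgeR adjusted p = 0.0591). HIF1A had 0.08 ± 0.07 (adjusted p = 0.584) and EGLN1 had 0.03 ± 0.07 (adjusted p = 0.863), and ARNT, HIF1AN and VHL had 0.11, -0.07 and 0.13 with adjusted p of at least 0.694.

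The inner tertile held more low-UMI area than the outer tertile, 42.2% against 7.83% of spots in Tumor-897 and 56.6% against 11.1% in Tumor-899. Fibroblast and pericyte markers, led by COL1A1 and COL3A1, summed to 542 CPM in the inner and 1456 CPM in the outer tertile of Tumor-897, and to 400 and 1975 CPM in Tumor-899, and 7 of 10 tested genes of that list were called lower in the inner tertile. All 7 tested skeletal muscle genes (median log2 fold change -5.04), 5 of 8 macrophage and granulocyte genes (median -1.31), both tested adipocyte genes and 2 of 8 endothelial genes were lower there too, and 1 of 2 red blood cell genes was higher. The part of these cells in the EGLN2 and EGLN3 differences was not tested. The summed score genes had 7269 CPM in the inner and 7619 CPM in the outer tertile of Tumor-897, and 7457 CPM against 6681 CPM in Tumor-899. Mean scores were 0.00715 in the inner and 0.0126 in the outer tertile of Tumor-897 and -0.0416 and -0.00587 in Tumor-899. With spots matched on the score EGLN3 had a log2 fold change of 0.85 (edgeR adjusted p = 8.38e-08). The matched spots of Tumor-899 had medians of 2087 UMIs in the inner and 17824 UMIs in the outer tertile. Equal scores at such unlike depths need not mean equal hypoxia gene RNA, so this value does not compare the tertiles at 1 hypoxia level. With the low-UMI area left out, EGLN3 had a log2 fold change of 0.49 (edgeR adjusted p = 0.000878) and EGLN2 of -0.36 (adjusted p = 0.00372). EGLN2 was no longer called with that area left out and zones matched on UMIs (-0.32, adjusted p = 0.0548), or in spots thinned to 1500 UMIs (-0.58, adjusted p = 0.144). By distance from the border, at 1 to 2, 3 to 4, 5 to 6, 7 to 9 and 10 or more steps, EGLN2 had 44.2, 44.4, 42.2, 38.2 and 36.1 CPM in Tumor-897 and 51.3, 53.8, 48.1, 44.1 and 37.6 CPM in Tumor-899. EGLN3 followed no such course: it had 29.0, 28.4, 21.2, 21.8 and 32.6 CPM in Tumor-897, and 17.1, 14.3, 14, 16.7 and 23.2 CPM in Tumor-899. In both tumors its highest value lay in the deepest bin.

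UMIs per spot were also set against the members, with the lowest quartile of smoothed UMIs compared with the highest. Only EGLN3 was called among the 8 members, against 7.68% of 14078 genes (4.88% higher and 2.80% lower). It had 58.3 CPM in low-UMI and 16.2 CPM in high-UMI spots of Tumor-897, and 49.99 CPM (50 UMIs, 37.1 to 65.9) against 12.7 CPM in Tumor-899. The log2 fold change was 1.99 ± 0.15 (edgeR adjusted p = 5.94e-32), with 1.94 and 2.06 in the tumors. The summed score genes had 9598 CPM in low-UMI and 6231 CPM in high-UMI spots of Tumor-897 and 8368 CPM against 6357 CPM in Tumor-899. The mean score per spot was 0.0784 in low-UMI and -0.172 in high-UMI spots of Tumor-897, but ran the other way in Tumor-899, at -0.239 in low-UMI and 0.0275 in high-UMI spots. Some markers of other cells were also called higher in low-UMI spots. These were 4 of 11 tested fibroblast and pericyte genes (COL3A1 at a log2 fold change of 1.94) and 4 of 9 macrophage and granulocyte genes. Both tested red blood cell genes (HBB at 0.92 and HBA1 at 2.39) were called too. So were 1 of 2 adipocyte genes (ADIPOQ at 6.17, with 29 UMIs in each whole section) and 1 of 9 endothelial genes. The latter was VWF at 2.67, with 32 and 10 UMIs in the whole sections. Of 6 tested skeletal muscle genes 0 were called. Endothelial markers summed to 153 CPM in low-UMI and 168 CPM in high-UMI spots of Tumor-897, and to 176 and 173 CPM in Tumor-899. The part of these other cells in the EGLN3 difference was not tested. When low-UMI and high-UMI spots were matched on the score made from summed UMIs, the log2 fold change of EGLN3 was 0.89 (adjusted p = 0.0016). HIF1A was not called, with 140 CPM in low-UMI and 157 CPM in high-UMI spots of Tumor-897 and 174 CPM against 169 CPM in Tumor-899 (log2 0.03 ± 0.10, edgeR adjusted p = 0.924). EGLN2 had log2 values of -0.18 in Tumor-897 and -0.96 in Tumor-899, where low-UMI spots held 22 UMIs of it, and it was not called (adjusted p = 0.0943). EGLN1 had a log2 fold change of 0.29 ± 0.11 (adjusted p = 0.0974) and EPAS1 of 0.38 ± 0.15 (adjusted p = 0.115), and ARNT, HIF1AN and VHL had 0.31, -0.24 and -0.25 with adjusted p of at least 0.365. Of all called genes 63.6% were higher in low-UMI spots with TMM scaling and 29.1% with library size alone.

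**Figure D4:**
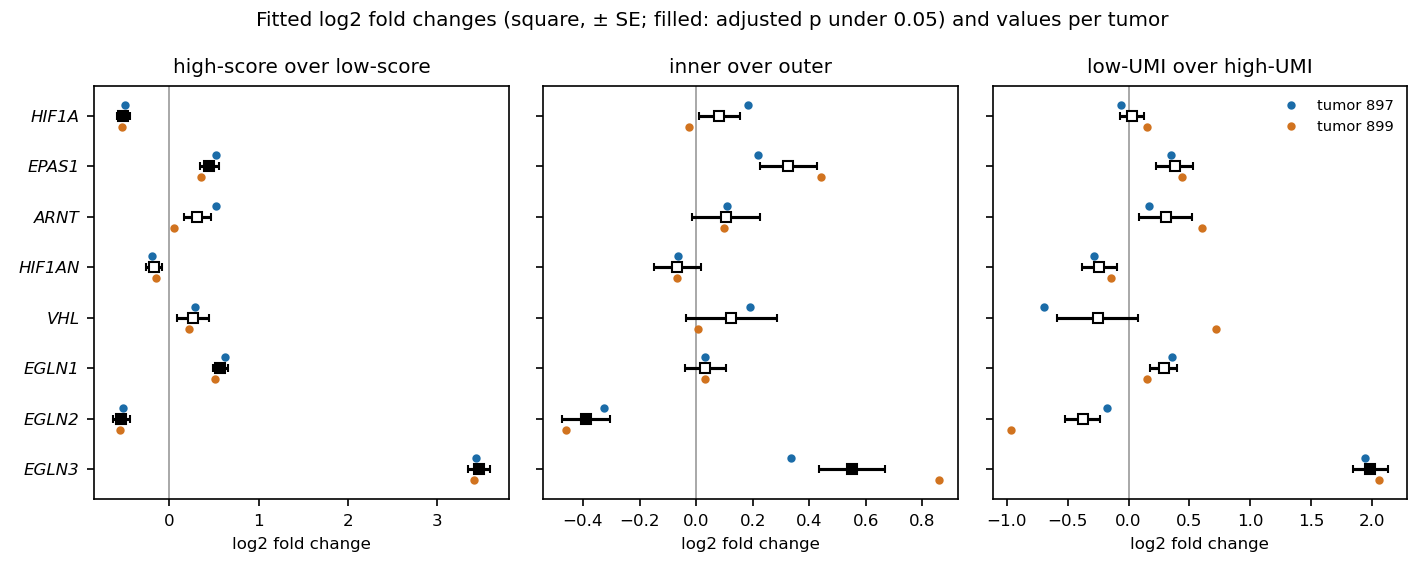
Fitted log2 fold changes of the 8 members (squares with SE, filled where the edgeR adjusted p was under 0.05) for high-score over low-score, inner over outer and low-UMI over high-UMI zones, with dots for each tumor alone; the scales of the 3 panels differ. EGLN3 is above 0 in all 3 comparisons, at 3.47, 0.55 and 1.99, and EGLN2 is below 0 in all 3, at -0.54, -0.39 and -0.38, the last not called.

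Score and UMIs were then crossed, with the quartiles of UMIs taken from low to high among spots above and below the median score. Above the median score, EGLN3 had 61.7, 61.0, 42.8 and 34.4 CPM in Tumor-897 and 90.0, 50.5, 29.3 and 18.1 CPM in Tumor-899. Below it EGLN3 had 50.8, 11.5, 11.5 and 9.25 CPM in Tumor-897 and 40.7, 3.57, 2.48 and 3.85 CPM in Tumor-899. So EGLN3 was low below the median score except in the quartile of fewest UMIs, where the summed score genes were also high, at 7735 and 7879 CPM against 5240 and 4766 CPM in the quartile of most UMIs. Below the median score, the quartile of fewest UMIs in Tumor-899 held 604 spots with a median of 1258 UMIs per spot. Their 7879 CPM of score genes lay under the 10470 CPM of the 107 spots of that quartile above the median score. It lay over the 7323 CPM of spots above the median score in the quartile of most UMIs. So across depths a lower score did not always go with less hypoxia gene RNA, and how far depth sets the score was not tested. Above the median score HIF1A had 136, 129, 133 and 128 CPM in Tumor-897 and 106, 121, 138 and 158 CPM in Tumor-899. Below it HIF1A had 148, 172, 170 and 168 CPM in Tumor-897 and 190, 177, 209 and 187 CPM in Tumor-899. Spots above the median score were lower at every quartile of both tumors, although the intervals overlap in the quartile of fewest UMIs. EGLN1 was higher above the median score in every quartile of both tumors but that one. In it EGLN1 had 78.9 CPM above and 81.5 CPM below in Tumor-897, and 58.2 and 77.7 CPM in Tumor-899. EPAS1 was not higher there either, at 29.72 and 29.85 CPM and 31.8 and 38.2 CPM. In the second quartile of Tumor-899 EPAS1 had 30.9 and 32.1 CPM. EGLN2 was lower above the median score in every quartile, at 21.2 and 22.2 CPM in the lowest of Tumor-899.

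**Figure D5:**
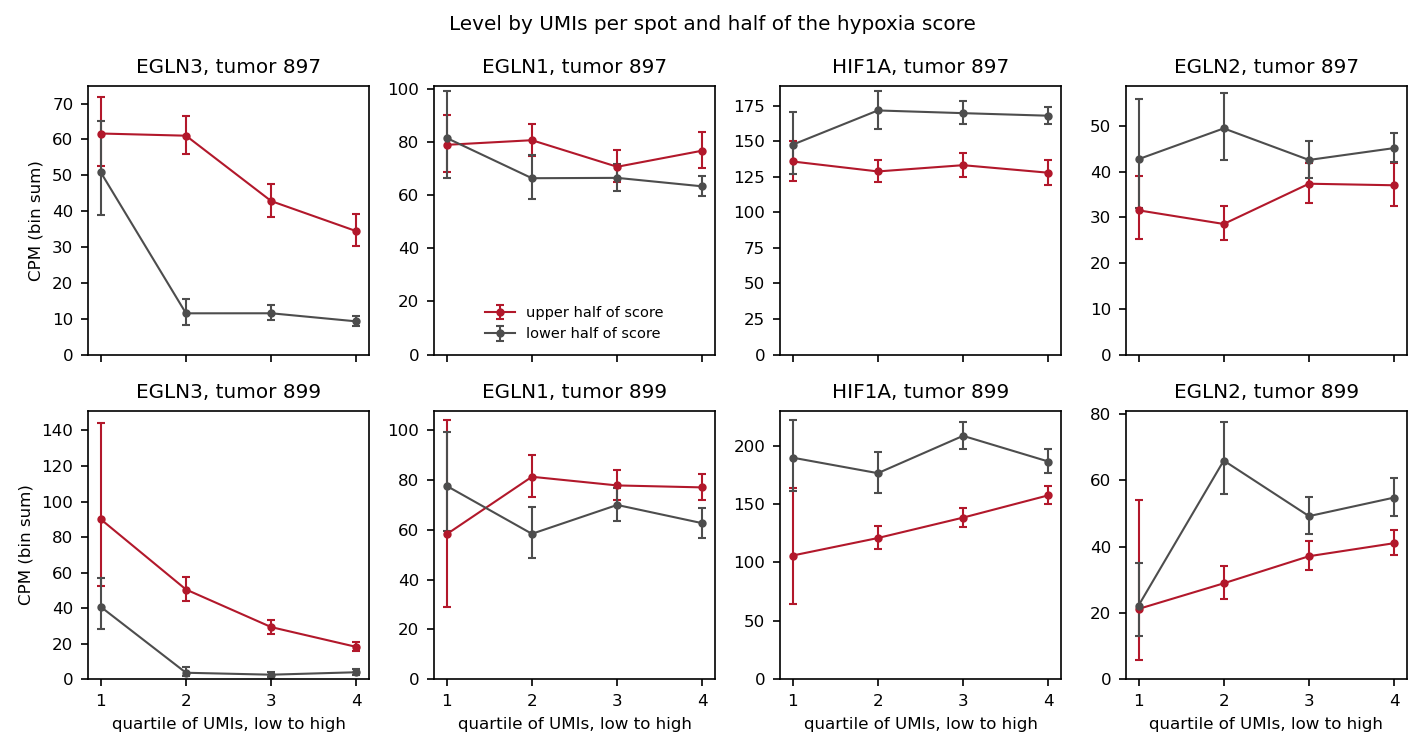
CPM of EGLN3, EGLN1, HIF1A and EGLN2 by quartile of UMIs per spot, from low to high, in spots above and below the median hypoxia score, with 95% Poisson intervals, in Tumor-897 (top) and Tumor-899 (bottom). Below the median score EGLN3 has 50.8 and 40.7 CPM in the quartile of fewest UMIs and at most 11.5 CPM in the others.

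Over 77 and 84 patches of neighbouring spots, the genes whose log2 CPM followed EGLN3 most closely were NDRG1, a score gene (Pearson r of 0.862 in Tumor-897 and 0.809 in Tumor-899), STC1, a secreted calcium regulator (0.810 and 0.793), and ERRFI1, an inhibitor of the EGF receptor (0.815 and 0.788), of 6565 genes ranked by the lower r. All 3 were also among the closest 25 with smaller patches, which held for 1 of the 3 closest genes of HIF1AN, EGLN1 and EGLN2 each and for 0 of 3 of HIF1A, EPAS1, ARNT and VHL, so the genes named for those 7 members depend on patch size. For HIF1A the closest were the RNA helicase gene DDX5 (0.711 and 0.604), the RNA-binding protein gene HNRNPA3 (0.653 and 0.597) and PHLDA2 (0.590 and 0.621). For EGLN2 they were RRP7A (0.655 and 0.655), the translation initiation factor EIF4G1 (0.599 and 0.672) and the proteasome subunit PSMB1 (0.574 and 0.750). EGLN1 was followed most closely by the dynein chain gene DYNC1I2 (0.508 and 0.480), HIF1AN by the histone deacetylase gene HDAC1 (0.486 and 0.470), VHL by MKKS (0.403 and 0.607), EPAS1 by the syndecan SDC4 (0.400 and 0.473) and ARNT by RAB8B (0.366 and 0.358). Between members, HIF1A and EGLN3 had r of -0.481 and -0.518, EGLN2 and EGLN3 had -0.521 and -0.388, and EGLN1 and EGLN3 had 0.523 and 0.148. With smaller patches these were -0.402 and -0.35, -0.339 and -0.244, and 0.253 and -0.0104, so the sign of the last pair turned in Tumor-899. Patches share a library, depth varies between them, and a correlation of CPM shares a total, so these values describe the sections and carry no test.

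Partners of the machinery and further target genes, listed with earlier results of these data known, were read beside the members. Of 30 listed partners (coactivators, ligase subunits, chaperones and antisense RNAs) 27 were tested, and 7 were called higher and 0 lower in high-score spots. Of all genes tested 8.82% were called higher and 6.75% lower. The partners had a median log2 fold change of 0.09 beside 0.00448 for all genes. Those with the largest differences were HIF1A-AS3 (1.81 ± 0.18), CITED2, which competes with HIF1A for its coactivator (1.49 ± 0.08), the ligase SIAH1, which targets EGLN proteins (0.54 ± 0.16), FKBP8 (0.53 ± 0.09), the chaperone HSP90AA1 (0.40 ± 0.09) and OS9 (0.28 ± 0.08), all with edgeR adjusted p between 2.63e-07 and 0.0366. With library size as the only scaling 3 were higher and 2 lower and the median was -0.03, DESeq2 called 3 higher, and the fit without the tumor block called 2. Of 30 further targets 27 were higher and 1 lower, with a median of 1.16, beside the same shares of all genes. DESeq2 and the fit without the block each called 23 targets higher and 0 lower. LOX, a collagen crosslinking enzyme, had 2.87 ± 0.09, the glucose transporter SLC2A3 had 2.41 ± 0.08, SPAG4 had 2.26 ± 0.14, the aldolase ALDOC had 2.09 ± 0.14, PPFIA4 had 1.94 ± 0.19 and the lipoprotein receptor VLDLR had 1.94 ± 0.15. The cyclin CCND1 was the gene that was lower (-0.35 ± 0.08, edgeR adjusted p = 0.00873). EGLN3, at 3.47, lay above all 30.

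HIF1A-AS3 is annotated as a long non-coding RNA at chr14:61715558-61751097, which overlaps HIF1A (chr14:61695513-61748258) by 32701 bases. It had 24.7 CPM in high-score spots and 6.91 CPM in low-score spots of Tumor-897, and 9.65 CPM against 3.91 CPM in Tumor-899, while HIF1A itself was lower in the high-score spots. From low to high score it ran from 4.57 to 29.2 CPM over the 10 bins of Tumor-897, rising at all but the sixth bin, and in Tumor-899 it was between 3.002 and 5.95 CPM in the lowest 5 bins and 13.1 CPM in the highest. Whether strand was used in counting is not given in the sources used here. Without strand, reads from the 32701 shared bases cannot be told apart between the genes.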

How the data were processed

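Each tumor section was deposited as a table of raw UMI counts per gene and spot. Per the file headers the authors used Space Ranger 1.3.0, and the submitters' processing notes name hg38; the annotation release and strand setting are not given in the sources used here. Tissue spots below 500 UMIs were dropped. The members, gene lists, zones and tests were chosen with earlier results of these data known. The hypoxia score is the mean z-score of log2(1 + UMIs per 10000) over 27 genes, averaged over a spot and its adjacent spots. Zone sums (2 zones in each of 2 tumors) were tested with edgeR 4.0.16 (R 4.3.3): TMM, filterByExpr, glmQLFit and glmQLFTest with tumor as a block, since both zones of a pair come from 1 section, and Benjamini-Hochberg adjustment over all genes tested, score genes left out. With 1 residual degree of freedom the fits lean on the spread shared between genes (prior degrees of freedom 11.5, 19.7 and 376 for score, border and UMI zones). The fits were tested on simulated data. CPM values are not TMM-scaled, so their ratios differ from fitted fold changes. Alternatives were DESeq2 1.42.0, other scalings, filters, zone widths, matching and thinning. All members are named, with the 6 called genes of each list that differ most by score and the 2 that differ most elsewhere. Patches were 6 array rows by 12 columns with at least 10 spots, over genes of at least 20 CPM. Promoters and gene positions are from RefSeq.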

Additional observations from a re-analysis of the deposited data

How the results depend on the processing

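HIF1A and EGLN3 stayed past the threshold by score in all 16 alternatives with a test, EGLN3 between 2.16 and 3.75 and HIF1A between -0.69 and -0.44 on the log2 scale. The number of members called by score was 5, against 3 with DESeq2 1.42.0 and 2 in spots thinned to 1500 UMIs. By border depth it was 2, against 1 with the low-UMI area left out and zones matched on UMIs (chosen after seeing the data), 1 after thinning, and 0 both with DESeq2 and without the replicate block by tumor (edgeR), each with 2 members at an unadjusted p under 0.05; EPAS1 passed by border in 4 of 14 alternatives. By UMIs it was 1, against 2 with library size alone (EGLN2 added), 2 with at least 2000 UMIs per spot (EGLN1 added), 2 with tertiles (EPAS1 added), and 0 with DESeq2, where 1 member had an unadjusted p under 0.05 and no adjusted p was given for 6 of 8 members (EPAS1, ARNT, HIF1AN, VHL, EGLN2 and EGLN3, with an unadjusted p of 4.32e-15 for EGLN3). Counts over all genes moved more. By score 2198 genes were called, against 438 with DESeq2, 791 without the replicate block, 3513 without spots rich in other cell markers, 3649 with the score from summed UMIs (chosen after seeing the data) and 544 after thinning. By border 871 were called, against 112 with DESeq2, 1420 with the frame edge as border, 405 with library size alone, 1320 with at least 2000 UMIs, 42 without the replicate block, 529 with low-UMI area left out and matching, and 316 after thinning. By UMIs 1081 were called, against 201 with DESeq2, 224 and 390 with zones matched on the summed score (chosen after seeing the data) and on the main score, 87 without the replicate block and 142 after thinning. Signs turned only for members that were not called. By border this was EGLN1 after thinning (-0.0542). By UMIs it was HIF1A with library size alone (-0.0802), at least 2000 UMIs (-0.08), no filter (-0.0062), thinning (-0.13) and tertiles (-0.0091), ARNT with zones matched on the score (-0.15), EGLN1 after thinning (-0.0702) and VHL with tertiles (0.0602). The cause of these shifts was not tested. Leaving out 1 tumor leaves a value with no test: by score EGLN3 had 3.41 and 3.44 on the log2 scale. Thinned spots leave members such as VHL and ARNT with few UMIs, and 2 sections limit every test.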

Other observations

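By border depth, 3 of 27 tested machinery partners were higher in the inner tertile and 0 lower. Of all genes tested 2.44% were called higher there and 3.48% lower. The largest were CITED2 (log2 0.80 ± 0.09, edgeR adjusted p = 5.24e-06) and HIF1A-AS3 (0.63 ± 0.15, adjusted p = 0.0111) among the partners. DESeq2 and the edgeR fit without the tumor block called 0 of these partners. Of 30 further hypoxia targets 4 were higher and 1 lower there, led by PLIN2, which coats lipid droplets (0.96 ± 0.08), and SLC2A3 (0.71 ± 0.12). Of these targets DESeq2 and the fit without the block each called 1 higher and 0 lower. By UMIs per spot, 4 partners were higher in low-UMI spots and 1 lower, with HIF1A-AS3 (1.51 ± 0.23) and CITED2 (1.21 ± 0.10) again the largest. Of all genes tested 4.88% were called higher in low-UMI spots and 2.80% lower. Of the partners DESeq2 called 2 higher and 0 lower, the fit without the block 1 and 0, and library size alone 3 and 2. Of the further targets 17 of 30 were higher and 0 lower in low-UMI spots, led by LOX (1.63 ± 0.10) and PLIN2 (1.56 ± 0.10). DESeq2 and the fit without the block each called 8 higher and 0 lower, and library size alone 14 and 1. Low-UMI area made up 89.6% of the low-UMI zone in Tumor-897 and all of it in Tumor-899, and the share of these differences due to it was not tested.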
